A study of Mus musculus with 24 samples.

Results

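The comparison described here sets CD11c+ adipose tissue macrophages (ATM) of formerly obese mice against CD11c+ ATM of obese mice. Its members are the 6 arrays whose titles place them in 1 of these groups, 3 of weight loss (WL) mice and 3 of mice on a high-fat diet (HFD), out of 24 arrays in the series. The mice were male C57Bl/6, and their gonadal fat was the source of all cells. HFD mice ate a diet with 60% fat and are labelled obese, and each HFD sample pooled cells of 3 to 4 mice. WL mice ate that diet for 12 weeks and were then taken off it for 8 weeks, and the labels leave unsaid whether their samples were pools. No allele or agent is named for any group, the labels give no ages, and CD11c+ ATM of mice on a normal diet (ND) were too scarce to be sorted, so no lean CD11c+ reference exists. Beside the 6 arrays stand CD11c- ATM from the same diets (3 HFD arrays and 2 WL arrays), ND CD11c- ATM (2 arrays) and preadipocytes (PA) of ND and HFD mice (3 arrays each). Each gene was read from 1 row of the array, its values are log2 expression, and 15496 of 22180 named genes were tested. A difference of 1 log2 unit is a doubling. Differences are WL minus HFD, given with the standard error (SE) of a single limma fit to all 24 arrays, and p-values were adjusted over all tested genes with a threshold of 0.05. They measure the spread between samples, which may be technical.

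CD11c, the integrin encoded by Itgax, marks macrophages that gather around dying adipocytes when fat expands. There they take up lipid, digest it in lysosomes and express a lipid-handling set of genes that includes Trem2, Cd9, Lpl and Gpnmb, and they are known as a source of inflammatory cytokines in obese fat. Fat shrinks when mice leave a high-fat diet, and the comparison asks how far these macrophages then differ from those of mice that stayed obese.

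The sorted cells carried the macrophage markers that their label calls for. The median level of 14 macrophage identity genes was between 9.85 and 10.13 on the HFD arrays and between 9.11 and 9.58 on the WL arrays, without overlap, and each of the 14 lay above the array median on each of the 6 arrays. Itgax itself read 8.89, 7.70 and 8.997 in HFD and 8.26, 9.19 and 9.02 in WL, with overlapping groups, and the 3 HFD CD11c- arrays read 6.40, 4.93 and 7.07. WL replicate 1 stood apart from the rest. Its mean correlation with the other arrays of its group was 0.881 across genes, against 0.913 and 0.917 for WL replicates 2 and 3 and 0.976 to 0.980 for the HFD arrays. WL replicates 2 and 3 correlated at 0.949 with each other, and at 0.878 and 0.885 with WL replicate 1. A list of neuron, glia and neuropeptide genes, added after the data were seen, had a median of 7.45 on that array and between 2.50 and 3.03 on the other 23, and the array read 10.14 for the neuropeptide gene Oxt and 9.69 for the axon growth protein gene Gap43. WL replicate 2 was highest of the 6 for sperm and epididymis genes, a list also added after the data were seen. The median of that list was 3.73 there, against 1.93 to 2.30 on the other 5, and 4.31 and 2.48 on the WL CD11c- arrays. Preadipocyte and fibroblast markers also moved with the diet: their median was between 5.76 and 6.83 on the HFD arrays, between 7.38 and 8.26 on the WL arrays, and between 9.83 and 10.04 in sorted ND PA. Mast cell markers had medians of 2.20 to 2.74 in HFD and 3.23 to 3.78 in WL, and ribosomal protein genes 10.49 to 10.61 and 10.12 to 10.37. The part these levels play in the differences below was not tested, and in such bulk samples fewer cells of a type and less RNA per cell cannot be told apart. The labels name no batch, so any batch that went with the diet cannot be told apart from it.

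**Figure D1:**
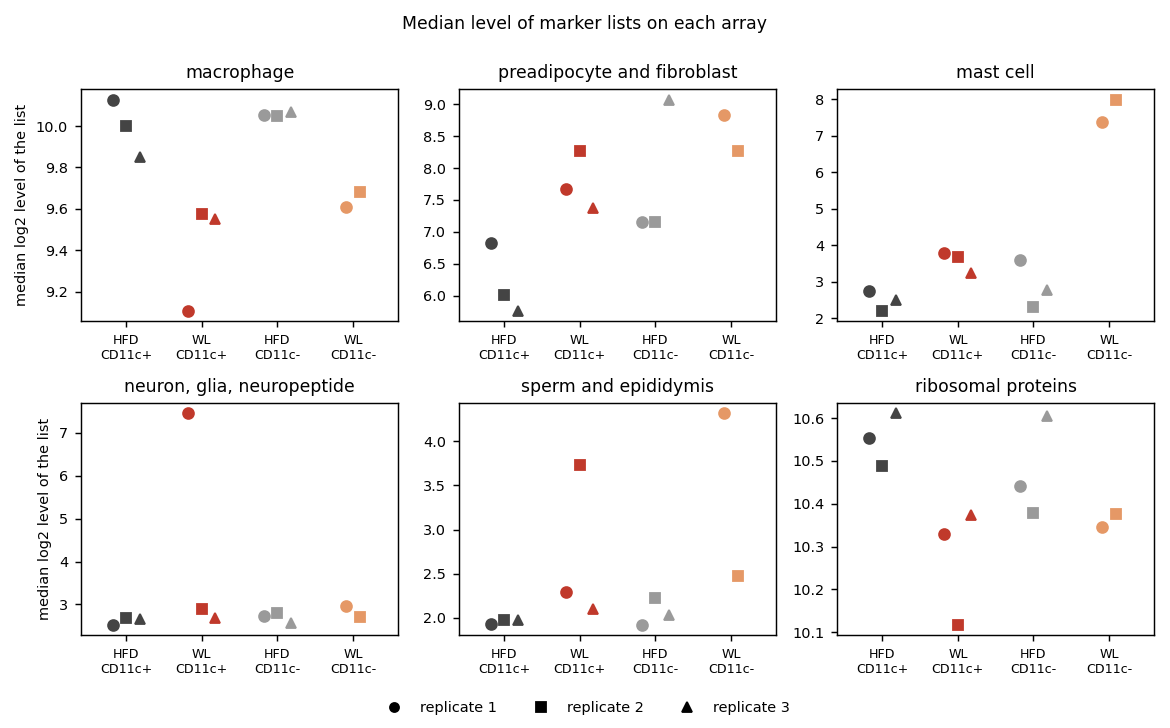
Each point is 1 macrophage array, placed by group on the x axis, and the y axis gives the median log2 level over a list of marker genes. The 3 WL CD11c+ arrays lie below the 3 HFD CD11c+ arrays for macrophage markers (9.11 to 9.58 against 9.85 to 10.13) and above them for preadipocyte markers, and WL replicate 1 alone reads 7.45 for neuronal genes.

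In CD11c+ ATM, 98 genes were higher after weight loss (0.632% of those tested) and 108 were lower (0.697%). Without adjustment, 1175 genes (7.58%) were higher and 1938 (12.5%) lower at a p below 0.05. Those shares are the background for the counts without adjustment given for the lists below. The median difference was 2.09 among the 98 rises, which ran from 0.87 to 4.18, and -1.25 among the 108 falls, which ran from -0.81 to -3.85, while over all tested genes it was -0.10. The balance of rises and falls moved with the scaling of the arrays. Rises made up 47.6% of calls on the deposited values and 17.8% (117 against 539) once arrays were centred on the median of named genes. They made up 67.7% (109 against 52) after a further quantile normalization and 89.3% (343 against 41) when ribosomal protein genes were set equal. Medians of all genes under these alternative scalings, in that order, were -0.26, -0.06 and 0.18. With only the 6 arrays of the comparison in the fit, 3 genes were higher and 1 lower. The counts were 14 and 9 without HFD replicate 3, and 299 and 472 without WL replicate 3. Without WL replicate 1, 62 genes were higher (0.4%) and 53 lower (0.342%), and 40 of the 98 rises and 36 of the 108 falls were still called. Only 12 rises and 7 falls passed whichever of the 6 arrays was left out. The 12 were Il6, Uchl1, Ccn1, Ccl11, Map1b, Serpinb9b, Id3, Agt, Has1, Chchd10, Lgi2 and the unnamed model Gm3893, and the 7 were Tmem171, Zdhhc23, Adgre4, Pot1b, Dmac1, Katna1 and the clone A930006K02Rik.

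The largest rise was that of Il6, the gene of a cytokine that acts on liver, immune and fat cells. Il6 read 2.12, 2.05 and 1.48 on the HFD arrays, all below the array medians, and 4.99, 6.25 and 6.96 on the WL arrays. The groups were far apart, and WL lay at least 3.07 log2 units higher when the array median is taken as the floor. The fitted difference was 4.18 ± 0.50 (SE, adjusted p = 0.000627), it was 4.72 without WL replicate 1, and its adjusted p stayed between 0.000257 and 0.00856 as each array was left out. The 6 PA arrays read 1.63 to 3.08 for Il6. Il1b, which encodes interleukin-1 beta, read 4.94, 5.13 and 4.69 in HFD and 6.65, 6.58 and 7.18 in WL, again with no overlap. It rose by 1.89 ± 0.37 (adjusted p = 0.0202) and by 1.96 without WL replicate 1, and the call was lost without any of the 3 HFD arrays, where the adjusted p reached 0.103. Ptgs2, the inducible cyclooxygenase of prostaglandin synthesis, read 3.59, 2.73 and 3.88 in HFD and 6.53, 4.98 and 6.59 in WL. Its rise of 2.63 ± 0.62 (adjusted p = 0.0419) held only when WL replicate 2 was the array left out, with an adjusted p of up to 0.164 otherwise.

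Within the list of inflammatory cytokines and enzymes, Il6, Ptgs2 and Il1b rose and Arg1 fell among 22 tested members, and the median difference was 0.17. Arg1, the arginine-degrading enzyme used as a mark of alternatively activated macrophages, read 5.05, 6.25 and 6.54 in HFD and 4.21, 3.98 and 3.83 in WL. It fell by 1.94 ± 0.47 (adjusted p = 0.0462), a call that held only without HFD replicate 1, with an adjusted p of up to 0.188 otherwise. Tnf, the gene of tumour necrosis factor, read 7.28, 6.97 and 7.17 in HFD and 7.78, 7.89 and 8.45 in WL. Its groups did not overlap, but the difference of 0.90 ± 0.37 did not pass (adjusted p = 0.188). Ccl2, the chemokine that draws monocytes, differed by 0.75 ± 0.42 (adjusted p = 0.328), from 9.14, 9.83 and 9.38 to 10.001, 10.34 and 10.26. Of 30 immediate early and dissociation stress genes, which respond within minutes to handling of the tissue, 0 passed in limma and 6 were higher at an unadjusted p below 0.05. Nr4a1 came closest, at 6.35, 6.32 and 6.34 against 7.19, 9.11 and 8.79 (2.03 ± 0.50, adjusted p = 0.0509), and it passed without WL replicate 1 (2.62, adjusted p = 0.02). Because such genes also respond to the isolation of cells, their levels are given beside the cytokine genes, and the part of handling in those rises was not tested.

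**Figure D2:**
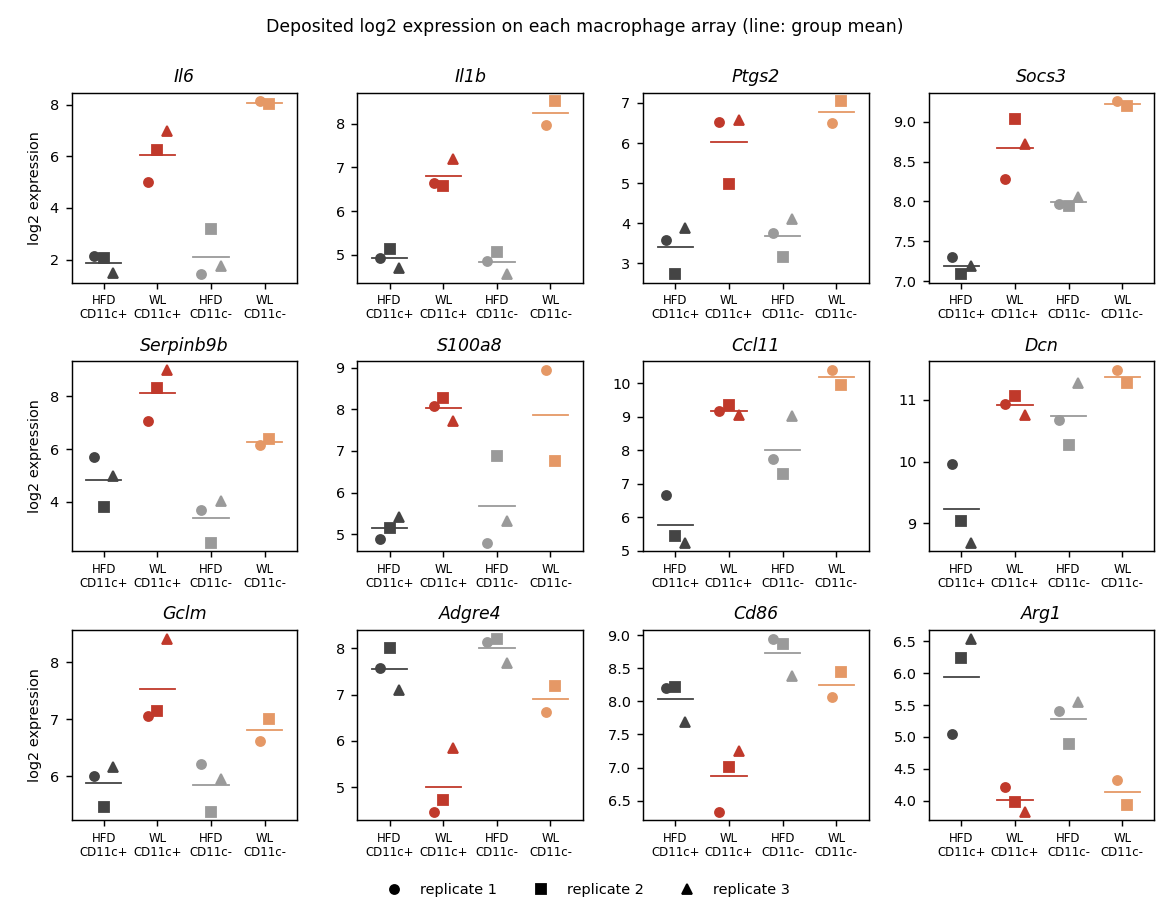
Each panel shows 1 gene, with the deposited log2 expression on the y axis and the 4 macrophage groups on the x axis, points for single arrays and lines for group means. Il6 lies between 1.48 and 2.12 on the 3 HFD CD11c+ arrays and between 4.99 and 6.96 on the 3 WL CD11c+ arrays, and Adgre4, Cd86 and Arg1 are lower on all 3 WL CD11c+ arrays.

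Socs3, Serpinb9b, Rgs16, Clec4e, S100a8 and S100a9 also rose, and they come from different lists or from none. Socs3, the feedback inhibitor of cytokine receptor signalling, read 7.30, 7.09 and 7.19 in HFD and 8.28, 9.03 and 8.72 in WL (1.48 ± 0.26, adjusted p = 0.00886), and its call was lost without HFD replicate 2 or 3 (up to 0.0518). Serpinb9b, a serine protease inhibitor of the granzyme-blocking family, read 5.68, 3.79 and 4.98 in HFD and 7.05, 8.31 and 9.0 in WL. It rose by 3.30 ± 0.52 (adjusted p = 0.00778), passed in all 6 leave-outs, and was higher without WL replicate 1 (3.84). Rgs16, which shortens signalling through G proteins, read 3.87, 2.30 and 3.10 in HFD and 5.35, 8.11 and 6.45 in WL (3.55 ± 0.63, adjusted p = 0.0108), and lost its call without HFD replicate 2 or 3 (up to 0.0642). Clec4e encodes Mincle, a receptor for microbial glycolipids and for products of dying cells. It read 4.96, 5.15 and 4.56 in HFD and 6.10, 5.81 and 6.08 in WL (1.10 ± 0.25, adjusted p = 0.0368), held only without WL replicate 3 (up to 0.171 otherwise), and was the only C-type lectin called among 20. S100a8 and S100a9, the paired calcium-binding alarmins of neutrophils and monocytes, both rose. S100a8 read 4.90, 5.16 and 5.40 in HFD and 8.09, 8.26 and 7.73 in WL (2.87 ± 0.54, adjusted p = 0.0164), with the call lost without any 1 HFD array (up to 0.0635). S100a9 read 4.99, 4.94 and 4.51 and then 8.73, 8.10 and 5.65 (2.68 ± 0.51, adjusted p = 0.0179), with the call lost without HFD replicate 2 or 3 or WL replicate 1 or 2 (up to 0.0941). They were the only 2 of 10 tested neutrophil markers to pass, and the median level of that list was 2.37 to 2.81 on the HFD arrays and 2.51 to 3.15 on the WL arrays.

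The promoters of the rises that were shared with CD11c- ATM were searched because the same genes were called in both populations. RefSeq promoters (mouse build GRCm38.p6, from 250 bases before to 50 bases after each gene's start) were held for 19 of those 23 genes. The AP-1 motif TGANTCA, where N is any base and both strands read alike, was present for Il6, Mt2, Nedd4 and Tnfaip6, which is 21.1% of the 19 genes, beside 8.97% of all 27025 genes in the table and 6.86% of the tested genes it holds. Among all 74 rises with a promoter it was 8.11%, near those backgrounds. It was present for 25% of the lysosomal list and 26.1% of the interferon list, which held 0 calls each, so the motif is not particular to the shared rises. Of the other motifs searched, the interferon response element and the E-box CACGTG were each found for 5.26% of the 19 genes and the serum response element for 0. A match is a description of letters, not evidence that a factor binds. The 250 bases before the start of 3 of the 4 genes are shown with the motif in capitals. Counting back from the start, it covers bases -249 to -243 of Il6 (chr5:30012864-30013113, plus strand), -142 to -136 of Tnfaip6 (chr2:52037863-52038112, plus strand) and -79 to -73 of Mt2 (chr8:94172368-94172617, plus strand).
Il6: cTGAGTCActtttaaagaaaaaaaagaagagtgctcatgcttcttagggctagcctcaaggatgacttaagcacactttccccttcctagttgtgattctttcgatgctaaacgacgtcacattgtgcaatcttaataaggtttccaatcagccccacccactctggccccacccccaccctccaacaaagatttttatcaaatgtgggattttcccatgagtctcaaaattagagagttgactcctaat
Tnfaip6: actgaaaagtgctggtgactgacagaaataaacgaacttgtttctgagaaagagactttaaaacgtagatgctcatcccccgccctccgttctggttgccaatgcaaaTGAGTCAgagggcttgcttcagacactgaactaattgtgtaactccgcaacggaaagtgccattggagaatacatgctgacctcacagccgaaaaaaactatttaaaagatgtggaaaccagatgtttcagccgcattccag
Mt2: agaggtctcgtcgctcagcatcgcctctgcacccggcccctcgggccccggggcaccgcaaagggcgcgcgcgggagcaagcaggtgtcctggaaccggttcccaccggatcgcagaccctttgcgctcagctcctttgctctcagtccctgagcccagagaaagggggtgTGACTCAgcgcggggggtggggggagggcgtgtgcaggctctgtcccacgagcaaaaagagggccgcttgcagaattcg
Tnfaip6, a hyaluronan-binding protein induced by inflammatory cytokines, read 3.15, 3.52 and 3.15 in HFD and 4.89, 6.26 and 7.03 in WL (2.79 ± 0.63, adjusted p = 0.0353). PA read 7.46 to 7.80 for it, and the call held only without WL replicate 1 (3.37, adjusted p = 0.0226), with an adjusted p of up to 0.13 otherwise. Mt2, a metal-binding metallothionein, moved less, from 9.44, 9.80 and 9.90 to 10.92, 10.86 and 10.66 (1.09 ± 0.23, adjusted p = 0.0268, lost in 5 of the 6 leave-outs and held without WL replicate 3). Tnfaip6 and Mt2 fall outside the rule for named genes and were chosen after their values were seen.

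Among chemokine ligands, 2 genes rose, both high in PA. Ccl11 encodes eotaxin, the chemokine that draws eosinophils. It read 6.65, 5.45 and 5.24 in HFD and 9.16, 9.34 and 9.04 in WL, a gap of more than 2 log2 units between the groups. It rose by 3.40 ± 0.41 (adjusted p = 0.000627), it was 3.41 without WL replicate 1, and it passed in all 6 leave-outs. Cxcl12, which holds blood cells and their precursors in tissue, read 5.59, 5.38 and 4.81 and then 7.71, 7.75 and 7.01 (2.23 ± 0.37, adjusted p = 0.00841), with the call lost only without HFD replicate 3 (0.0635). The 6 PA arrays read 10.72 to 11.53 for Ccl11 and 8.87 to 9.42 for Cxcl12, above all 6 CD11c+ ATM arrays. These were the 2 calls among 24 chemokine ligand genes, whose median difference was 0.41.

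Genes of the extracellular matrix were among the rises. Of 35 tested collagen and matrix genes, 5 rose and 0 fell, 26 were higher at an unadjusted p below 0.05, and the median difference was 1.36. Of 16 preadipocyte and fibroblast markers, 3 rose (Lum, Dcn and Serpinf1), 14 were higher without adjustment, and the median was 1.43. Lum and Dcn are also among the 5 calls of the collagen and matrix list, so these lists are not independent. Of 22 matrix-remodelling genes, 4 rose, with a median of 1.22. The signs of these 3 medians were the same under each scaling tried. Dcn, the collagen-binding proteoglycan decorin, read 9.97, 9.03 and 8.68 in HFD and 10.93, 11.06 and 10.76 in WL (1.69 ± 0.37, adjusted p = 0.0334). Lum, which encodes the related lumican, read 8.10, 7.22 and 6.85 and then 9.10, 9.49 and 9.29 (1.90 ± 0.43, adjusted p = 0.0358). Bgn, the gene of biglycan, read 8.63, 7.73 and 7.74 and then 9.79, 10.49 and 10.15 (2.11 ± 0.47, adjusted p = 0.0351). Col5a2, a chain of fibrillar collagen V, read 3.51, 2.76 and 3.46 and then 5.06, 4.79 and 5.78 (1.97 ± 0.46, adjusted p = 0.0401). HFD replicate 1 was the highest HFD array for each of these 4, as it was for the preadipocyte list. Calls of Dcn, Lum and Bgn were lost without HFD replicate 2 or 3 or WL replicate 1 or 2 (up to 0.156, 0.164 and 0.144), and that of Col5a2 in each leave-out (0.0527 to 0.158). Without WL replicate 1 the collagen list held 1 call with a median of 1.64, and the preadipocyte list 0 with a median of 1.50. In that fit the remodelling list held 4 calls with a median of 1.27, but Mmp14, called in the main fit, was not among them. The preadipocyte median without WL replicate 1 was thus no smaller, while fewer members passed.

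The 4 calls of the matrix-remodelling list were Adamts1, Timp3, Mmp11 and Mmp14, and the rises named after them belong to no list described here. Adamts1, a protease of matrix proteoglycans, read 4.80, 2.92 and 4.29 in HFD and 5.96, 6.77 and 6.36 in WL (2.36 ± 0.43, adjusted p = 0.0112), with the call lost only without HFD replicate 2 (0.0642). Timp3, an inhibitor of matrix proteases, read 6.03, 5.83 and 5.74 and then 8.29, 8.01 and 7.29 (2.00 ± 0.36, adjusted p = 0.0117), lost without HFD replicate 2 or 3 (up to 0.0724). Mmp11 and Mmp14, both metalloproteinases, rose by 2.23 ± 0.55 (adjusted p = 0.0489) and 2.16 ± 0.53 (adjusted p = 0.0483), and each held in 1 of 6 leave-outs, without WL replicate 1 for Mmp11 and without HFD replicate 1 for Mmp14. Ccn1, a matrix-bound regulator of adhesion, read 3.62, 3.12 and 3.94 and then 7.18, 8.21 and 7.20 (3.97 ± 0.64, adjusted p = 0.00778), and passed in all 6. Igfbp5, which binds insulin-like growth factors, read 3.66, 3.00 and 2.79 and then 6.21, 6.90 and 6.56 (3.41 ± 0.58, adjusted p = 0.0088), lost only without HFD replicate 3 (0.0625). Aebp1, a matrix protein of preadipocytes, rose by 2.93 ± 0.57 (adjusted p = 0.018, lost without HFD replicate 2 or 3 or WL replicate 2), and Fxyd1, a regulator of the sodium pump, by 2.84 ± 0.56 (adjusted p = 0.0196, lost without HFD replicate 2 or 3 or WL replicate 1, up to 0.103). Has1, a hyaluronan synthase outside the rule for named genes, read 1.97, 2.04 and 2.59, all below the array medians, and then 4.31, 5.63 and 3.99. It was at least 1.65 log2 units higher in WL (fitted 2.44 ± 0.39, adjusted p = 0.00778), passed in all 6 leave-outs, and read 2.14 to 4.16 in PA.

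How far the rises are genes of PA was counted from the means of ND PA and ND CD11c- ATM, which belong to neither group compared but share the filter and the estimate of the spread. Of the 98 rises, 67 (68.4%) were at least 1 log2 unit higher in ND PA than in ND CD11c- ATM, against 13.5% of all tested genes and 6 (5.56%) of the 108 falls. Of the 62 rises called without WL replicate 1, the count was 34 (54.8%). The part of cells of the PA kind in these rises was not tested. For the rises described with the cytokines, the highest value on any PA array was 2.69 for Clec4e, 3.07 for Il1b, 3.08 for Il6 and 3.83 for S100a8. It was 4.51 for S100a9, 4.57 for Serpinb9b, 4.91 for Rgs16, 5.84 for Ptgs2 and 8.76 for Socs3.

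Of the 15 tested members of the complement list, C1s1 and Serping1 rose and the median difference was -0.29. C7, a component of the membrane attack complex that is not in that list, was among the largest rises. It read 6.52, 4.54 and 3.93 in HFD and 8.70, 8.89 and 7.95 in WL (3.51 ± 0.66, adjusted p = 0.0163). C1s1, a protease of the first complement complex, read 6.00, 4.13 and 4.45 and then 7.32, 9.20 and 7.91 (3.28 ± 0.75, adjusted p = 0.0378). Serping1, its inhibitor, read 8.56, 7.10 and 7.05 and then 9.68, 9.97 and 9.75 (2.23 ± 0.49, adjusted p = 0.0336). PA arrays read 9.92 to 11.13 for C7, 9.92 to 10.35 for C1s1 and 11.03 to 11.55 for Serping1. Each of the 3 lost its call without HFD replicate 2 or 3, C1s1 also without WL replicate 2 and Serping1 also without WL replicate 1 or 2 (up to 0.0961, 0.15 and 0.15).

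Genes of the NRF2 antioxidant response, which keeps glutathione and thioredoxin reduced, were mostly higher. Slc7a11, the cystine importer that feeds glutathione synthesis, read 2.90, 1.96 and 2.27 in HFD, below the array medians, and 6.09, 6.08 and 3.86 in WL. It was at least 2.35 log2 units higher (fitted 2.97 ± 0.67, adjusted p = 0.0354), a call that held only without WL replicate 3 (up to 0.131 otherwise). Gclm, a subunit of the enzyme that starts glutathione synthesis, read 6.01, 5.45 and 6.16 and then 7.06, 7.14 and 8.42. It rose by 1.66 ± 0.35 (adjusted p = 0.0257), by 1.90 without WL replicate 1, and lost its call without any 1 of the HFD arrays (up to 0.122). Of 15 tested members 2 rose, 10 were higher at an unadjusted p below 0.05 (7.58% of all tested genes were) and 13 had a positive difference. The list's median was 0.69, beside -0.10 over all tested genes. That list median stayed positive under each scaling tried and was 0.96 without WL replicate 1.

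Some of the largest rises were genes that neurons also express, and here WL replicate 1 was the highest array. Map1b, a microtubule-binding protein, read 4.59, 4.20 and 4.08 in HFD and 9.72, 6.91 and 6.38 in WL (3.38 ± 0.56, adjusted p = 0.00802), and 2.35 without WL replicate 1 (adjusted p = 0.00581). Uchl1, a neuronal deubiquitinase, read 5.16, 3.03 and 3.99 and then 9.07, 7.45 and 7.96 (4.10 ± 0.67, adjusted p = 0.00802), and 3.65 without that array (adjusted p = 0.0252). Both passed in all 6 leave-outs, and PA read 7.32 to 8.69 for Map1b and 4.61 to 6.40 for Uchl1. Golm2 read 2.31, 2.83 and 1.76, below the array medians, and then 7.17, 5.08 and 3.93. It was at least 2.39 log2 units higher (fitted 3.09 ± 0.69, adjusted p = 0.0341), but 2.20 without WL replicate 1 did not pass (adjusted p = 0.113), and the call held only without WL replicate 3. Of 21 tested genes of the neuronal list, Uchl1 alone passed with or without WL replicate 1, and the median difference was 1.56 with that array and 0.24 without it.

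The lipid-associated macrophage genes for which CD11c+ ATM are known showed no call in either direction. Of 20 tested members 0 passed in limma and 0 had an unadjusted p below 0.05, the differences ran from -0.23 to 0.90, and the median was 0.02, with -0.13 after centring and 0.05 and 0.30 under the other scalings. Trem2, the lipid receptor of these cells, read 9.93, 9.65 and 9.91 in HFD and 9.31, 9.57 and 9.98 in WL, a difference of -0.21 with a 95% interval of -1.62 to 1.20. Cd9, a tetraspanin, differed by -0.21 (interval -1.11 to 0.70), and Gpnmb, a lysosome-associated glycoprotein, by 0.48 (-0.83 to 1.78). Lpl, the lipase that frees fatty acids from lipoproteins, read 11.46, 11.15 and 11.43 and then 11.001, 11.34 and 11.32, a difference of -0.13 (-0.66 to 0.41). Mmp12, the macrophage elastase, was the furthest from 0, at 9.55, 8.83 and 9.69 against 9.97, 10.38 and 10.41, a difference of 0.90 (-0.04 to 1.83, adjusted p = 0.269). A row with a single symbol was not found for Spp1. For 13 of the 20 genes, Cd36, Ctsd and Lpl among them, the interval lay within 1 log2 unit of 0, and for the other 7 (Trem2, Cd9, Gpnmb, Mmp12, Ctsk, Itgax and Tyrobp) it did not. Of 25 tested lysosomal enzymes and proton pump subunits 0 passed and 0 had an unadjusted p below 0.05, with differences from -0.32 to 0.33 and a median of -0.08 that turned positive under quantile (0.07) and ribosomal (0.20) scaling and without WL replicate 1 (0.09). For 23 of the 25 the interval lay within 1 log2 unit of 0. Of 18 cathepsins and cystatins 0 passed and 3 had an unadjusted p below 0.05, 1 higher and 2 lower. Ctsh, a lysosomal aminopeptidase, read 9.44, 9.67 and 9.31 and then 9.01, 8.89 and 9.13 (-0.47 ± 0.16, adjusted p = 0.124).

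**Figure D3:**
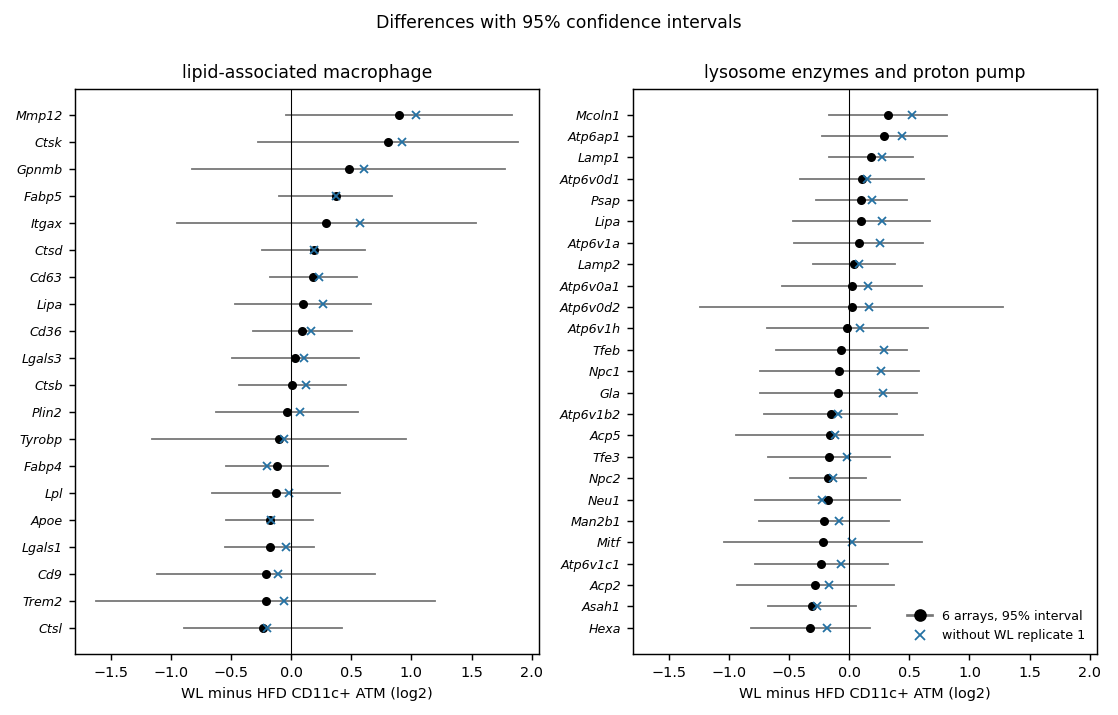
The x axis gives the log2 difference WL minus HFD CD11c+ ATM for each tested gene of 2 lists, with points for the fit, bars for 95% confidence intervals and crosses for the fit without WL replicate 1. Differences run from -0.23 to 0.90 for the lipid-associated macrophage genes and from -0.32 to 0.33 for the lysosomal genes, and every interval includes 0.

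The remaining lists of fat and sterol metabolism held 0 calls: 19 genes of cholesterol efflux and scavenger receptors (5 with an unadjusted p below 0.05), 19 of sterol and fatty acid synthesis (3), 15 of fatty acid oxidation (3), 19 of glycolysis and hypoxia (0) and 24 of the respiratory chain (0). Abca1, which exports cholesterol, read 8.25, 8.11 and 7.90 in HFD and 7.24, 8.26 and 7.76 in WL, with overlap (-0.33, interval -0.84 to 0.17). Pparg, a nuclear receptor for fatty acids, read 8.57, 8.76 and 8.79 and then 7.31, 8.22 and 7.97, without overlap, and its difference of -0.88 ± 0.26 did not pass (adjusted p = 0.0884, and 0.284 without WL replicate 1).

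Of 14 macrophage identity genes 0 passed in limma. At an unadjusted p below 0.05, 2 were lower, a share near the 12.5% of all tested genes. Of the 14 genes, 12 had a negative difference. The list's median of -0.48, beside -0.10 over all tested genes, stayed negative under each scaling tried. Adgre1, the classical surface marker of mouse macrophages, read 10.69, 10.32 and 10.53 in HFD and 9.43, 10.17 and 10.16 in WL (-0.59 ± 0.54, adjusted p = 0.576), Mrc1, the mannose receptor, differed by -0.43 ± 0.55 and Cd68, a lysosomal glycoprotein, by 0.11 ± 0.49. Fcgr1, a high-affinity receptor for IgG, read 9.42, 9.34 and 9.25 and then 7.59, 7.39 and 7.89, far apart on these arrays, yet -1.72 ± 0.68 did not pass (adjusted p = 0.175). Ccr2, the receptor for Ccl2 on monocytes, read 9.38, 9.93 and 9.20 and then 8.16, 8.50 and 8.26 (-1.20 ± 0.65, adjusted p = 0.308). The resident macrophage genes Timd4 and Lyve1 differed by 0.38 ± 0.49 and 0.05 ± 0.62, with overlapping groups.

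Adgre4, Gpr82, Scimp, Ms4a4c and Hgf were among the named falls, while the lists of Toll-like receptors and adaptors, Fc and inhibitory receptors, chemokine receptors and C-type lectins held 0 falls among 21, 17, 14 and 20 tested genes. Adgre4, a macrophage receptor related to Adgre1, read 7.59, 8.01 and 7.09 in HFD and 4.47, 4.72 and 5.84 in WL. It fell by 2.55 ± 0.40 (adjusted p = 0.00778), its difference without WL replicate 1 was -2.28, and it passed in all 6 leave-outs. Gpr82, an orphan receptor, read 3.68, 4.25 and 4.05 and then 2.11, 1.85 and 1.96, below the array medians, which gives a fall of at least 0.93 (a fitted difference of -2.02 ± 0.34, adjusted p = 0.00842, lost without HFD replicate 2 or 3, up to 0.051). Scimp, an adaptor of Toll-like receptor and MHC class II signalling, read 6.36, 6.32 and 6.02 and then 5.01, 2.75 and 4.66 (-2.09 ± 0.49, adjusted p = 0.0419), and its call was lost without any HFD array or without WL replicate 2 (up to 0.132). Ms4a4c, a membrane protein counted here as a monocyte marker, read 5.69, 6.13 and 4.88 and then 3.06, 3.48 and 2.99 (-2.39 ± 0.56, adjusted p = 0.0401, held only without WL replicate 3). It was the only call among 14 monocyte markers. Hgf, hepatocyte growth factor, read 6.69, 5.99 and 7.13 and then 4.21, 4.70 and 5.17. It fell by 1.91 ± 0.43 (adjusted p = 0.0368), held only without WL replicate 3 (up to 0.168 otherwise), and was the only call among 18 growth factor genes. PA read 6.40 to 7.45 for Hgf.

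Cd86 and Ciita, which serve the activation of T cells, fell. Cd86, a costimulatory ligand of T cells, read 8.20, 8.22 and 7.69 in HFD and 6.34, 7.02 and 7.25 in WL (-1.17 ± 0.27, adjusted p = 0.0401), and -0.90 without WL replicate 1 (adjusted p = 0.137). Ciita, the activator of MHC class II genes, read 6.94, 7.29 and 6.63 and then 5.95, 5.62 and 5.73 (-1.19 ± 0.27, adjusted p = 0.0378), and -1.29 without that array (adjusted p = 0.0593). Both calls held only when WL replicate 3 was left out, and both were lost under quantile and ribosomal scaling. Each was the only call of its list, among 16 costimulation and 18 antigen presentation genes, with medians of -0.27 and -0.47 (the first turned to 0.01 under ribosomal scaling). H2-Ab1, a class II chain, read 11.22, 11.26 and 11.32 and then 11.12, 11.22 and 10.88, a difference of -0.19 (interval -1.45 to 1.07).

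Of 26 interferon response genes, 25 had a negative difference, 11 were lower at an unadjusted p below 0.05 and 0 passed in limma. Of all tested genes 12.5% were lower at that p, and their median difference was -0.10. The list's median of -0.55 was negative under each scaling tried, and 5 members passed, all lower, once arrays were centred. Oas2, a sensor of double-stranded RNA, came nearest, at 5.84, 6.95 and 5.27 in HFD and 4.30, 3.48 and 4.82 in WL (-1.82 ± 0.46, adjusted p = 0.0535). Ifit1, which binds foreign RNA, read 4.64, 5.25 and 4.91 and then 4.07, 3.81 and 3.64 (-1.09 ± 0.31, adjusted p = 0.0757). Oas1g, a further member of that sensor family and no member of the list, showed the largest fall of any named gene: it read 6.30, 7.14 and 5.77 and then 1.81, 1.88 and 4.24 (-3.76 ± 0.79, adjusted p = 0.0263). It held only without WL replicate 3 (up to 0.121 otherwise), and signal shared between near-identical Oas genes could not be separated. Of 23 list members with a RefSeq promoter, 14 (60.9%) held the interferon response element on either strand, against 3.99% of all genes in the table. The list was made of interferon response genes, so this share describes the list and not the differences. Among the 84 called falls with a promoter the share was 7.14%, against 3.75% of the tested genes. Toll-like receptors and their adaptors had 0 of 21 calls and 3 lower at an unadjusted p below 0.05, a share near the 12.5% of all tested genes. Of the 21, 20 had a negative difference, and the median of -0.42 stayed negative under each scaling tried. The median level of this list was 6.98 to 7.22 on the HFD arrays and 6.37 to 6.67 on the WL arrays, without overlap. Tlr9, a member that binds unmethylated DNA, read 7.34, 7.37 and 7.10 and then 3.90, 5.57 and 6.24 (-2.03 ± 0.53, adjusted p = 0.0622).

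Of 37 cell cycle genes 0 passed in limma and 8 were lower at an unadjusted p below 0.05, against 12.5% of all tested genes. The list's median of -0.59 was -0.32 without WL replicate 1. Mcm5, a subunit of the replication helicase, read 6.70, 7.01 and 6.98 in HFD and 4.26, 5.79 and 5.58 in WL (-1.69 ± 0.49, adjusted p = 0.0783), while Mki67, the proliferation marker Ki-67, read 7.71, 8.34 and 8.11 and then 7.06, 8.52 and 8.07, with overlap (-0.17 ± 0.41). Among genes outside the lists, Pot1b, which protects chromosome ends, read 6.70, 7.17 and 6.88 and then 5.02, 4.76 and 5.22. It fell by 1.92 ± 0.29 (adjusted p = 0.00748) and passed in all 6 leave-outs. Cenpk, a centromere protein, read 5.07, 5.65 and 5.30 and then 3.10, 3.03 and 3.98 (-1.97 ± 0.44, adjusted p = 0.0353), and Rpp38, a subunit of ribonuclease P, 5.57, 6.34 and 5.89 and then 2.83, 2.59 and 5.23 (-2.38 ± 0.55, adjusted p = 0.0378). Both held only without WL replicate 3, the highest WL array for each (up to 0.132 and 0.142 otherwise). Tmem171, a membrane protein, fell by 2.87 ± 0.49 (adjusted p = 0.00842), and Zdhhc23, a protein palmitoyltransferase, by at least 2.02 (a fitted -2.68 ± 0.41, adjusted p = 0.00778). Both passed in all 6 leave-outs. The other named falls were Myh15 (-3.22 ± 0.76, adjusted p = 0.0407), Zfp760 (-2.39 ± 0.47, adjusted p = 0.0193) and Dppa3 (-1.88 ± 0.46, adjusted p = 0.0484). They held in 2, 2 and 1 of the 6 leave-outs, and lost their calls without HFD replicate 3 or WL replicate 1 among others (up to 0.161, 0.0904 and 0.172).

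The largest fall of all was in a microRNA gene, chosen after its value was seen since the rule for named genes passes over small RNAs. Mir103-2 read 5.04, 6.34 and 5.58 in HFD and 1.52, 2.14 and 1.76 in WL, where every array lay below its median. The fall was at least 2.59 log2 units (a fitted -3.85 ± 0.85, adjusted p = 0.0336), and the call held only without WL replicate 3 (adjusted p of up to 0.13 otherwise). CD11c- ATM read 6.79, 6.58 and 5.44 in HFD and 1.74 and 2.61 in WL (-4.09 ± 0.95, adjusted p = 0.0239), and PA 3.85 to 6.29. A microRNA is cut from a hairpin and directs the silencing of mRNAs that pair with its seed, bases 2 to 8. miR-103 is known to restrain insulin signalling in liver and fat. The row names the gene and does not show which of its RNAs was detected, so the mature forms were not measured separately here. They are printed, from RefSeq (GRCm38.p6, plus strand), to show what the gene makes, with the seed in capitals, at chr2:131288066-131288088 for the 5p arm and chr2:131288103-131288125 for the 3p arm. The 2 arms have different seeds.
mmu-miR-103-2-5p: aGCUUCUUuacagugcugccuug
mmu-miR-103-3p: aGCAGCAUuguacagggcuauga

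Of the 49 gene lists, 16 held at least 1 call, though Lum, Dcn and Ptgs2 each count in more than 1 list. Beside those described, 1 of 19 TGF-beta and myofibroblast genes rose, Fst, which encodes the activin antagonist follistatin (1.91 ± 0.43, adjusted p = 0.0345). Sgk1, a kinase induced by glucocorticoids, rose alone among 15 clock and glucocorticoid genes (1.10 ± 0.24, adjusted p = 0.0334). Both held only without WL replicate 3 (up to 0.139 and 0.128 otherwise), and PA read 7.33 to 8.29 for Fst and 5.73 to 7.37 for Sgk1. Mast cell genes all had a positive difference in CD11c+ ATM, but 0 of 14 passed in limma. At an unadjusted p below 0.05, 7 were higher, against 7.58% of all tested genes. Tpsb2, a mast cell tryptase, read 5.61, 2.23 and 2.54 in HFD and 7.11, 6.99 and 6.75 in WL (3.49 ± 0.99, adjusted p = 0.077), and Mcpt4, a chymase, 5.81, 2.17 and 2.84 and then 7.81, 7.19 and 7.22 (3.80 ± 1.29, adjusted p = 0.124). HFD replicate 1 was the highest HFD array for both. Markers of T cells, endothelial cells, NK cells, eosinophils, adipocytes, mesothelium and pericytes held 0 calls each. Some of their median levels did not overlap between the groups: they were higher in WL for endothelial (3.95 to 4.34 in HFD and 4.39 to 4.98 in WL), mesothelial (2.29 to 2.61 and 2.76 to 2.99) and pericyte markers (3.65 to 3.91 and 4.11 to 4.34), and lower for eosinophil markers (2.46 to 2.83 and 1.89 to 2.28). The medians of T cell, NK cell and adipocyte markers overlapped. Lists of other kinds, such as Toll-like receptors and ribosomal proteins, also did not overlap, so such separation is not particular to these markers. The mesothelial and eosinophil medians lay below the array median on every array of both groups. Above it stood 2 to 3 of 10 mesothelial markers per HFD array and 4 to 5 per WL array. For the 7 eosinophil markers it was 1 to 3 and 1 to 2. The part of all these marker levels in the differences was not tested.

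**Figure D4:**
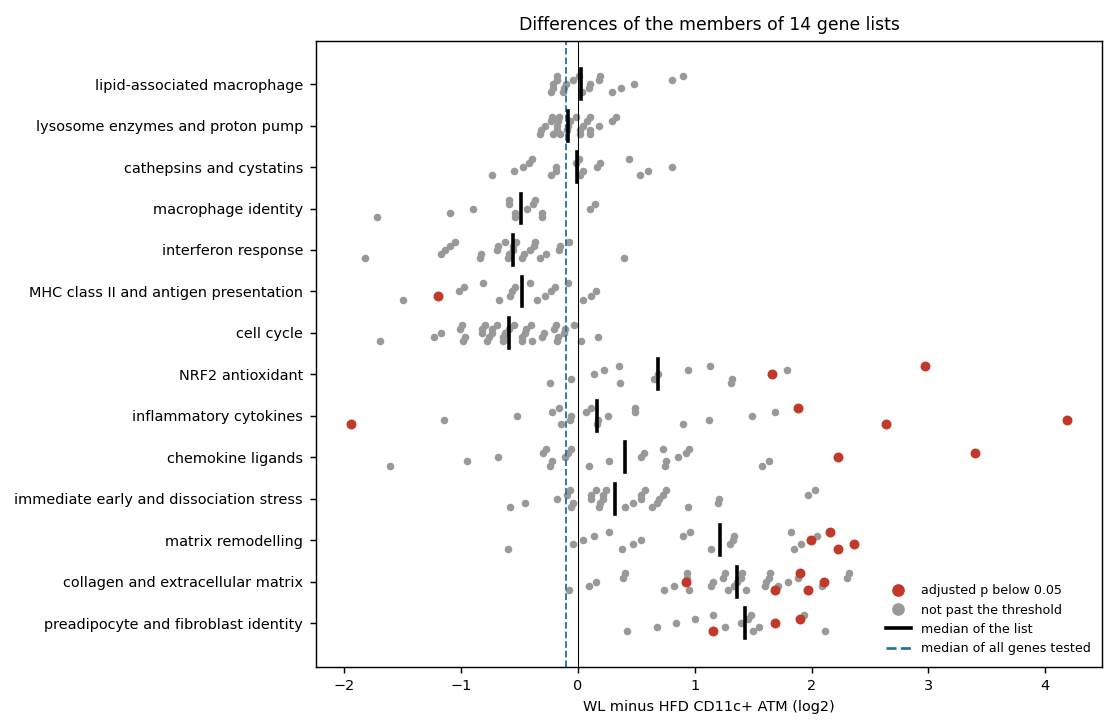
Each point is a tested gene of 1 of 14 lists, placed by its log2 difference WL minus HFD CD11c+ ATM on the x axis, with red points past the adjusted threshold, a bar at the list's median and a dashed line at the median of all tested genes (-0.10). The collagen and preadipocyte lists centre at 1.36 and 1.43, the interferon list at -0.55, and the lipid-associated macrophage list at 0.02.

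CD11c- ATM were compared between the same diets on arrays of their own, with 182 genes higher (1.17% of those tested) and 277 lower (1.79%). Of the CD11c+ rises, 23 were also called higher there (23.5% of the 98 and 12.6% of the 182), and of the falls 19 were also called lower (17.6% of the 108 and 6.86% of the 277), while 0 were called in opposite directions. The shared rises included Il6, Il1b, Ptgs2, Socs3, Clec4e, Serpinb9b, S100a9, Ccl11, Ccn1, Rgs16, Slc7a11 and Has1. CD11c- differences had the same sign for 89 of the 98 rises (90.8%, against 42.7% of all genes with a positive difference) and 99 of the 108 falls (91.7%, against 57.3% negative). The medians were 1.13 for the rises and -0.69 for the falls in CD11c- ATM, nearer to 0 than the 2.09 and -1.25 of the cells in which they were chosen. Il6 in CD11c- ATM went from 1.43, 3.17 and 1.74 in HFD to 8.13 and 8.02 in WL, a difference of 5.96 ± 0.56 (adjusted p = 2.89e-06), and the test of whether the populations differ gave -1.78 ± 0.75 (adjusted p = 0.651). For Il1b the CD11c- difference was 3.40 ± 0.42 against 1.89 ± 0.37, and the difference between them, -1.52 ± 0.56, did not pass (adjusted p = 0.544).

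**Figure D5:**
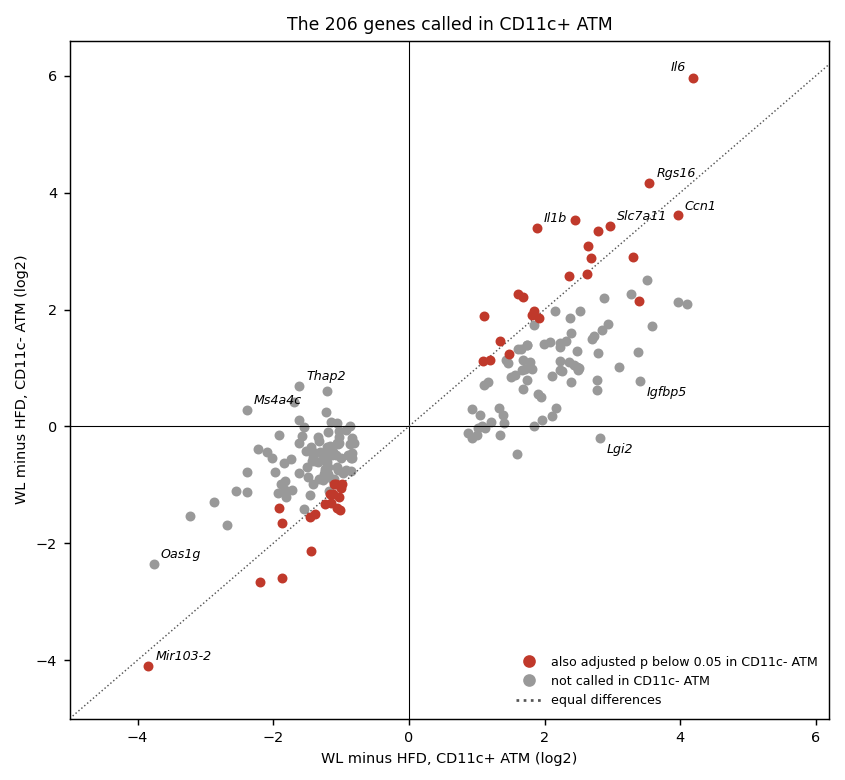
Each point is 1 of the 206 genes called in CD11c+ ATM, with its log2 difference WL minus HFD in CD11c+ ATM on the x axis and in CD11c- ATM on the y axis, red where it was also called in CD11c- ATM, and a dotted line where the 2 are equal. No red point lies in the upper left or lower right, and 89 of the 98 rises lie above 0 on the y axis.

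The direct test, of the CD11c+ difference minus the CD11c- difference, called 25 genes (0.161%), 3 with a positive value and 22 with a negative one. The sign does not tell which population changed more. Lgi2, a secreted leucine-rich repeat protein, was the only gene of the 25 that was called higher in CD11c+ ATM. It read 2.90, 1.86 and 2.53 in HFD, below the array medians, and 5.18, 5.80 and 4.74 in WL, at least 2.24 log2 units higher (fitted 2.81 ± 0.40, adjusted p = 0.00478, passing in all 6 leave-outs), and 3.63, 4.70 and 5.18 in HFD and 4.91 and 3.69 in WL CD11c- ATM. The difference between the contrasts was 3.02 ± 0.60 (adjusted p = 0.0415), and it passed in 3 of 11 leave-outs. PA read 6.63 to 7.85 for Lgi2. Of the 22, 20 rose in CD11c- ATM and 0 in CD11c+ ATM, and genes of mast cells were among the largest. The exceptions were Klrb1b, which passed in neither population alone, and Thap2, which fell in CD11c+ ATM (-1.61, adjusted p = 0.0112). Rad1 and Gpatch2l, the other genes with a positive value, were called lower in CD11c- ATM (-3.45 ± 0.36, adjusted p = 1.14e-05, and -1.54 ± 0.24, adjusted p = 0.00172). Their CD11c+ differences were -0.96 and 0.12. Tph1, the serotonin-synthesizing enzyme of mast cells, read 7.78 and 7.25 on the WL CD11c- arrays and no more than 2.74 on any CD11c+ array, all of them below the array medians. Hdc, which makes histamine, read 6.44 and 7.70 on the WL CD11c- arrays and 2.79, 2.65 and 3.81 on the WL CD11c+ arrays. The median of the mast cell list was 7.39 and 8.00 on those CD11c- arrays, and 12 of its 14 tested members were called in CD11c- ATM against 0 in CD11c+ ATM, with 6 of the 14 past the threshold in the test of the difference.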

How the data were processed

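RNA of sorted cells was amplified with a NuGEN whole-transcript kit and hybridised as biotinylated cDNA, 1 array per sample, per the labels' protocols. The authors deposited normalized log2 values. Per the submitters' processing notes they used RMA, oligo and limma, versions: not given in the sources used here. RMA equalizes arrays, so a shift shared by all genes is removed. Arrays were grouped by title, and 0 value columns were left unmapped. Of 41345 probe rows, 23521 had a single gene symbol in the platform annotation, and a gene was read from its row of highest mean. Genes with at least 2 of 24 arrays above that array's own median were tested (15496). The 9 group means were fitted with limma 3.58.1 in R 4.3.3 (15 residual degrees of freedom, spread shared by all groups, two-sided, Benjamini-Hochberg), and the code was tested on simulated data. A least difference takes the array median as the floor for a group that never exceeds it. The number of arrays limits the precision, and signal over background was not analysed here.

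The text names the 15 largest rises and 15 largest falls past the threshold whose groups do not overlap. It also names a panel of macrophage genes and up to the 10 largest in each direction of the test between populations. For lists the rule allowed up to 4 called or 2 near members, and some members and some whole lists were left out of the text. Unnamed models, receptors of smell, antigen receptor segments, small RNAs and pseudogenes were passed over. The members and lists were chosen with earlier results of these data known, and 2 lists were added after the data were seen. Alternatives were other sets of arrays, a replicate block, filters, scalings, averaging of probe rows, a variance trend, array weights and leaving out arrays.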

Additional observations from a re-analysis of the deposited data

Results flagged for a closer look

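The test of whether the weight loss difference is unlike in CD11c+ and CD11c- ATM drew attention to 13 genes. They are the 3 positive differences past the threshold and the 10 largest negative ones after unnamed models, antigen receptor segments and pseudogenes were passed over, which leaves out larger values of a pair of immunoglobulin kappa segments (-5.62 and -4.19), Tpsab1 (-4.45) and the unnamed model Gm614 (-3.09). Values are the CD11c+ difference minus the CD11c- difference in log2 units. Lgi2 (3.02), Rad1 (2.48) and Gpatch2l (1.66) were positive. Rad1, a DNA damage checkpoint clamp, read 4.85, 6.05 and 6.58 on the WL CD11c+ arrays and 2.86 and 3.76 on the WL CD11c- arrays, against 6.56 to 7.04 on the HFD CD11c+ arrays.

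The negative values were those of Tph1 (-4.82), Gzmb (-3.90), Mrgprb1 (-3.88), Hdc (-3.60), Ctsg (-3.44), Slc18a2 (-3.32), Mrgpra4 (-3.25), Gpr171 (-3.21), Slc6a4 (-2.98) and Klrb1b (-2.85). Of these, Tph1, Hdc, Ctsg, Slc18a2, Mrgpra4 and Slc6a4 passed in all 11 fits that left out 1 of the arrays involved, Mrgprb1 in 9, Gpr171 in 3, Klrb1b in 2 and Gzmb in 1. On the positive side, Lgi2 passed in 3 of the 11 and Rad1 and Gpatch2l in 2 each. Klrb1b, a receptor of NK cells, was the only one of the 10 with a negative CD11c+ difference (-1.48) beside a positive CD11c- difference (1.37), and neither passed alone (adjusted p = 0.0556 and 0.0826).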

How the results depend on the processing

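The arrays that share the spread set how many genes pass. With only the arrays of each comparison in the fit, 4 genes (of 206) passed in CD11c+ ATM, 31 (of 459) in CD11c- ATM and 7 (of 25) in the test between them, with 1 of 16 lists and 3 of 30 named genes still holding a call. The labels give replicate numbers, and the main fit did not pair arrays by them. Deviations of same-numbered HFD and WL arrays correlated at 0.01, 0.05 and 0.08, and those of differently numbered arrays at -0.07 to 0.01. Correlations this weak cannot tell whether the numbers mark a shared origin. A replicate block over all 24 arrays gave 214 genes in CD11c+ ATM, and with only the arrays of the comparison it gave 0 in limma for CD11c+ ATM, CD11c- ATM, lists and named genes (2357 and 1743 genes at an unadjusted p below 0.05 in CD11c+ and CD11c- ATM) and 4 in the test between them. A stricter filter gave 316 and 2 for CD11c+ ATM and the test between populations, centring gave 656 genes and 31 lists, ribosomal scaling 384 genes, and array weights 173 genes in CD11c- ATM. Leaving out 1 array gave 23 to 771 genes in CD11c+ ATM (79, 34 and 23 when the array left out was HFD replicate 1, 2 or 3, and 115, 124 and 771 when it was WL replicate 1, 2 or 3), 199 to 633 in CD11c- ATM, 12 to 63 in the test between them, 3 to 26 lists and 10 to 29 named genes. Without both WL replicates 1 and 2, chosen after seeing the data and with the lone WL array assumed to vary like the other groups, 16 genes, 3 lists and 3 named genes passed. Causes of these changes in the counts were not tested. For the 131 single genes followed, 1979 values stayed called or stayed uncalled, 322 lost the call and 51 gained it. Direction was compared only where the main or the alternative fit called the gene, and 0 of those values turned. Signal over background was not analysed here, so low levels are the least certain.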

Other observations

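Across both macrophage populations, the 5 WL arrays lay above all 19 other arrays in 14 of 15496 genes (0.0903%) and below all of them in 29 (0.187%), of which 4 were among the 98 CD11c+ rises and 9 (8.33%) among the 108 falls. Il6 read 4.99 to 8.13 on the WL arrays and 1.43 to 3.63 on the others, which include preadipocytes and dendritic cells. Genes outside the CD11c+ calls showed the same separation. Cxcl2 and Cxcl1, chemokines that draw neutrophils, read 9.70 to 10.14 and 7.05 to 8.21 on the WL arrays against 3.07 to 9.31 and 1.70 to 6.80. Tnf read 7.53 to 9.03 against 3.13 to 7.32, and the chemerin-binding receptor gene Ccrl2 8.84 to 9.58 against 2.51 to 8.33. Clec4d, a C-type lectin of myeloid cells, read 8.35 to 9.81 against 1.37 to 7.54.

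On the low side, Cdkn1b, an inhibitor of cell cycle kinases, read 6.04 to 6.82 on the WL arrays and 7.04 to 8.36 on the others. Ifngr1, a chain of the interferon gamma receptor, read 8.45 to 9.12 against 9.20 to 9.98, and Ctsh 8.89 to 9.18 against 9.25 to 10.07. These genes were chosen after their values were seen, and no test was made of them as a group.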
